A study of Mus musculus with 8 samples.

Results

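The laminins, nidogens and perlecan of the basement membrane were followed as 10 genes, chosen by symbol from the 24421 genes counted in every library. They are the laminin alpha chains Lama1, Lama2, Lama4 and Lama5, the beta chains Lamb1 and Lamb2, the gamma chain Lamc1, the nidogens Nid1 and Nid2, and Hspg2, which encodes perlecan. All 10 had reads, although Lama2 had none in either Direct RNA Undiff library. R1 mouse embryonic stem cells, an established pluripotent line, were compared in 2 states. The Undiff cells were not given retinoic acid (RA). The Day4 cells had grown as embryoid bodies without leukaemia inhibitory factor (LIF) and were then exposed for 4 days to 2 µM RA, an inducer of differentiation. The methods of the study describe Undiff as ESCs kept in medium with LIF, whereas the labels list embryoid bodies as the tissue of every sample, and one label field writes the RA dose in millimolar units. RNA with poly(A) tails was read on nanopore flow cells of Oxford Nanopore Technologies (ONT) after preparation with 2 kits, Direct RNA (500 ng of input), which reads the RNA strand itself, and cDNA (50 ng of input), which reads PCR-amplified copies. Each state had 2 replicates, grown and treated separately according to the methods of the study, and their RNA went into both kits, which gave 8 libraries in 4 groups from 4 cultures. A value seen on both platforms therefore comes from the same cultures and is not an independent repeat, and the fits over 8 libraries count each library as a sample of its own.

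Basement membranes are thin sheets of extracellular matrix under epithelia, around muscle and along vessels. A laminin is a trimer of 1 alpha, 1 beta and 1 gamma chain, assembled inside the cell. Secreted trimers polymerise on the cell surface, where integrins and dystroglycan bind them. Nidogens and perlecan bridge the laminin sheet to a separate network of type IV collagen. In the early mouse embryo the primitive endoderm and its parietal derivative lay down much of this matrix, and embryoid bodies form a basement membrane beneath their outer endoderm layer.

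The Direct RNA libraries held between 283461 and 907489 reads on genes, and the cDNA libraries between 948657 and 2088592. Levels are given as CPM, reads per 1e6 reads on genes, and the lowest level that 3 reads can show was between 1.44 and 10.6 CPM. Replicates of a group differed by more than sampling noise. The chi-square per degree of freedom was 2.68 and 4.01 in Direct RNA Undiff and Day4, and 14.9 and 13.7 in the matching cDNA groups. The states were checked by marker genes. All 9 pluripotency markers fell on both platforms, from a summed 11200 to 13400 CPM in Direct RNA Undiff to between 109 and 514 CPM in Day4. In cDNA 3 of them were called without Undiff replicate 2 and 5 without Undiff replicate 1. Of 9 markers of primitive and parietal endoderm, such as Gata4 and Gata6, 6 rose in Direct RNA and 5 in cDNA. Without Undiff replicate 2 the count was 3 on either platform, and without Day4 replicate 2 it was 3 in cDNA. Of 7 mesenchymal markers, 5 rose on each platform, but in cDNA 3 did without Undiff replicate 2 or Day4 replicate 1 and 2 without Day4 replicate 2. The samples were bulk RNA, so a change in the number of cells of a type and a change in RNA per cell cannot be told apart.

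The 10 genes together took little of each library, and their summed level did not separate the states. In Direct RNA they summed to 637 and 758 CPM in Undiff and to 744 and 578 CPM in Day4. In cDNA the sums were 56.9 and 94.8 CPM in Undiff and 65.2 and 88.6 CPM in Day4. The ranges of the states overlapped on both platforms. The platforms were far apart: the mean over 4 libraries was 679 ± 86.8 CPM (SD, n = 4) in Direct RNA and 76.4 ± 18.2 CPM (SD, n = 4) in cDNA, an 8.89-fold difference. In reads, the sums were between 211 and 688 per Direct RNA library and between 54 and 198 per cDNA library, and this depth limits every comparison between states below.

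**Figure D1:**
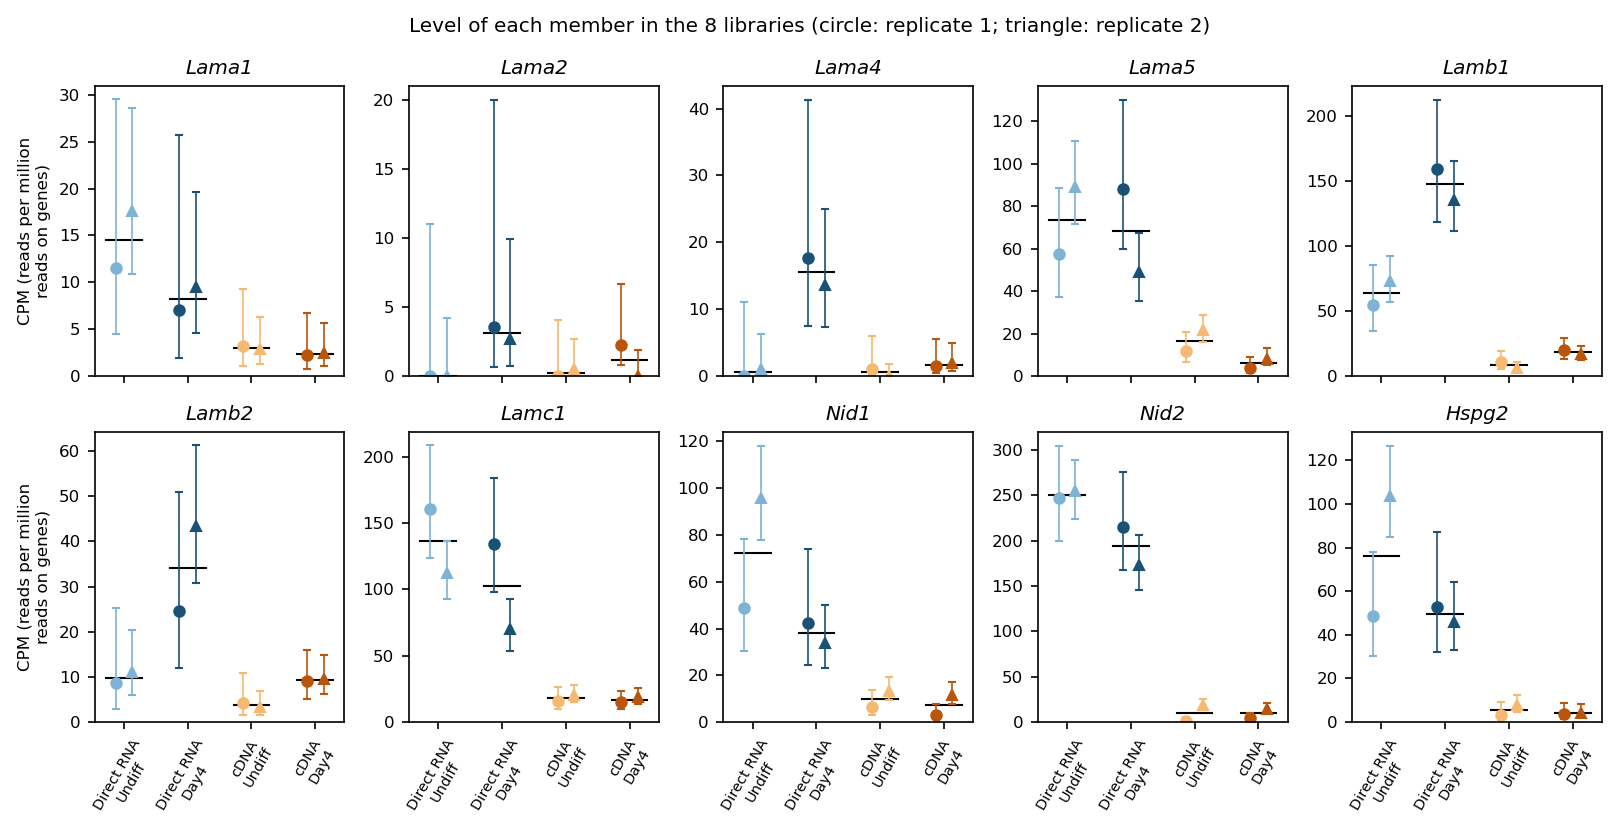
CPM of each gene in the 8 libraries, with replicate 1 as circles, replicate 2 as triangles, the group mean as a black line and 95% Wilson intervals as bars. Each panel has its own axis. The Day4 libraries of Lamb1 and Lamb2 sit above the Undiff libraries on both platforms, and the cDNA libraries of most genes sit far below the Direct RNA libraries.

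Differentially expressed genes (DEGs) were called with DESeq2 on each platform. A DEG had to have an adjusted p no higher than 0.05, at least a doubling or halving (a log2 fold change of 1 or more in either direction) and 5 or more normalized counts in the mean. A total of 8 of the 10 genes reached this mean count in Direct RNA and 7 in cDNA. None was a DEG on either platform. Among all genes with this mean count, 9.54% were called higher and 7.67% lower in Direct RNA, and 8.69% higher and 9.24% lower in cDNA. At an unadjusted p under 0.05, 2 of the 10 genes (Lamb1 and Lama4) passed in Direct RNA and 1 (Lama5) in cDNA. The share of all genes at this p was not computed. The quasi-likelihood test of edgeR called 3 of 7 genes tested in Direct RNA, with Lamb1 and Lamb2 higher and Nid1 lower, and 1 of 6 in cDNA, Lama5, which was lower. The edgeR shares among all genes were larger too, at 20.6% higher and 14.9% lower in Direct RNA and 16.4% higher and 14.3% lower in cDNA. The median log2 fold change of the genes with enough reads was -0.51 by Direct RNA and -0.41 by cDNA, while all genes had medians of 0.025 and 0.0019.

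The promoters of the 4 genes that edgeR called are shown because they are the members that moved under at least 1 test, a pair of beta chains upward and Nid1 and Lama5 downward. Each runs from 250 bases before to 50 bases after the RefSeq start on GRCm38.p6, 5′ to 3′ on the strand of the gene, and capitals mark a GC box (GGGCGG on either strand). Lamb1 is read from the plus strand of chr12:31265043-31265342, Lamb2 from the plus strand of chr9:108479612-108479911, Nid1 from the plus strand of chr13:13437352-13437651 and Lama5 from the minus strand of chr2:180225810-180226109.
Lamb1: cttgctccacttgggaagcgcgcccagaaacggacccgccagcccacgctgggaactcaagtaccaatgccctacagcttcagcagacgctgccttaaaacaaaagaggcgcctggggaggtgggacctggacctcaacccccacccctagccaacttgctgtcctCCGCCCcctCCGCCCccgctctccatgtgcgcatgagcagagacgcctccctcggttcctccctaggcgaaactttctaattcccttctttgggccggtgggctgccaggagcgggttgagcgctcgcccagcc
Lamb2: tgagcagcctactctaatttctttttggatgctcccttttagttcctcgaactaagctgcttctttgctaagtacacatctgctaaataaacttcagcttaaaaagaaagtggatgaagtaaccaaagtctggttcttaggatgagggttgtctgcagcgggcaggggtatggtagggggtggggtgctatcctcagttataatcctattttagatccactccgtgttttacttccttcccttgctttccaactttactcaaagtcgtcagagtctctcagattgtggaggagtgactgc
Nid1: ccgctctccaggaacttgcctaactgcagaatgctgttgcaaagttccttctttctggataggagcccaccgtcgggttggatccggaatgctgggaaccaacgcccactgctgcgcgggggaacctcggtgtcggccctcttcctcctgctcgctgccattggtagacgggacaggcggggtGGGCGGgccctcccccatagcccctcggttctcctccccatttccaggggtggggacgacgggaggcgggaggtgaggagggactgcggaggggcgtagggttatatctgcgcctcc
Lama5: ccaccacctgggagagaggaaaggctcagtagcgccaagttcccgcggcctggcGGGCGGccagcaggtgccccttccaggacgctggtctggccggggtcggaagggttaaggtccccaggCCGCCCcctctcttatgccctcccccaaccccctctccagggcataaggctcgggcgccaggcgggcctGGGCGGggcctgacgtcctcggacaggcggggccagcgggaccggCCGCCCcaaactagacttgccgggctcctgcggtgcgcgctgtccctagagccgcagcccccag
The pair of genes with higher edgeR values were unlike in this window. Lamb1 held 2 GC boxes, at a GC content of 63.7%, and Lamb2 held none, at 44.0%. Nid1 held 1 and Lama5 held 4, at GC contents of 64.7% and 72.7%. A GC box was present in 35.7% of 32851 promoters of this length. The CCAAT box (CCAAT, either strand) was found once in Lamb1 and once in Nid1 and in 37.4% of all promoters. TATAAA, the RA receptor motif AGGTCA and the GATA motif AGATAA, each searched on both strands, were in none of the 4, and in 13.6%, 16.3% and 11.2% of all promoters. None of the marked GC boxes overlapped another of these motifs. Bases further than 250 before or 50 after the start were not searched. Of the 10 genes, 6 had a promoter in the table.

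The beta chains had the higher values in Day4 by both kits. Lamb1, the beta1 chain of most early embryonic laminins, lies on chr12:31265234-31329644 (mm10, plus strand, longest transcript 5784 bases in 33 exons). Its level was 54.5 and 72.7 CPM in Direct RNA Undiff and 159 and 136 CPM in Direct RNA Day4. By cDNA it was 10.5 and 6.22 CPM in Undiff and 19.7 and 16.9 CPM in Day4. Every Day4 library was above every Undiff library on both platforms. The summed reads of a group gave a ratio of Day4 to Undiff of 2.1 (95% exact interval 1.59 to 2.78) in Direct RNA and 2.37 (1.45 to 4.02) in cDNA, where the intervals cover counting error only. The DESeq2 log2 fold change was 1.04 (SE 0.48, adjusted p = 0.164) by Direct RNA and 0.78 (SE 0.78, adjusted p = 0.723) by cDNA. With edgeR the Direct RNA value was 1.10 (adjusted p = 0.0153), so the call of Lamb1 in Direct RNA depends on the test. After thinning of all libraries to the smallest, 2 random draws kept 0 members called, and the cDNA value of Lamb1 was -0.62 in the first draw.

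Lamb2, the beta2 chain known from the neuromuscular junction and the kidney filter, lies on chr9:108479736-108490530 (plus strand, longest transcript 5629 bases in 33 exons). It was at 8.61 and 11.0 CPM in Direct RNA Undiff and at 24.7 and 43.4 CPM in Direct RNA Day4. The cDNA libraries gave 4.22 and 3.35 CPM in Undiff and 9.10 and 9.63 CPM in Day4. As for Lamb1, the states did not overlap on either platform. The ratio over the summed reads was 3.69 (1.93 to 7.53) in Direct RNA and 2.6 (1.28 to 5.72) in cDNA. The log2 fold change was 1.51 (SE 0.89, adjusted p = 0.350) by Direct RNA and 0.89 (SE 0.98, adjusted p = 0.768) by cDNA, and edgeR gave 1.76 (adjusted p = 0.0168) in Direct RNA. Without Day4 replicate 2, which held 32 of the 39 Day4 reads, the Direct RNA value of DESeq2 was 0.88. Lamb1 and Lamb2 were the 2 of 8 genes in Direct RNA, and the 2 of 7 in cDNA, whose Day4 libraries all lay above Undiff. Such a pattern was held by 37.3% of all genes in Direct RNA and 43.1% in cDNA.

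Lamc1, the gamma1 chain, which took most gamma-chain reads in every library, lies on chr1:153218922-153332786 (minus strand, longest transcript 7622 bases in 28 exons). It was at 161 and 112 CPM in Direct RNA Undiff and at 134 and 70.5 CPM in Day4. In cDNA the Undiff libraries were at 15.8 and 20.6 CPM and the Day4 libraries at 15.2 and 18.8 CPM. The states overlapped on both platforms. The log2 fold change was -0.53 (SE 0.48, adjusted p = 0.660) in Direct RNA, and the 95% interval of the unshrunken value ran from -1.51 to 0.42. In cDNA the interval ran from -1.83 to 0.96, which leaves room for changes beyond the threshold in the lower direction.

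The beta and gamma chains were also set against each other within each library. This ratio was chosen after the values were seen and carries no test. There were 0.339 and 0.647 Lamb1 reads per Lamc1 read in Direct RNA Undiff, and 1.18 and 1.92 in Direct RNA Day4. In cDNA there were 0.667 and 0.302 in Undiff and 1.30 and 0.897 in Day4. The ratio of Day4 was above that of Undiff in every library on both platforms, with more Lamc1 than Lamb1 reads in all 4 Undiff libraries and more Lamb1 than Lamc1 reads in 3 of 4 Day4 libraries. The number of Lamb2 reads per Lamc1 read was 0.0536 and 0.098 in Direct RNA Undiff and 0.184 and 0.615 in Day4, and 0.267 and 0.163 in cDNA Undiff and 0.60 and 0.513 in Day4, so Lamb2 had fewer reads than Lamc1 in all 8 libraries. Within the beta chains the shares of the states overlapped in Direct RNA and met in cDNA. Lamb1 made up 86.1% ± 0.50 (SD, n = 2) of beta-chain reads in Direct RNA Undiff and 80.8% ± 7.99 in Day4, and 68.2% ± 4.53 in cDNA Undiff and 63.8% ± 1.77 in Day4.

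**Figure D2:**
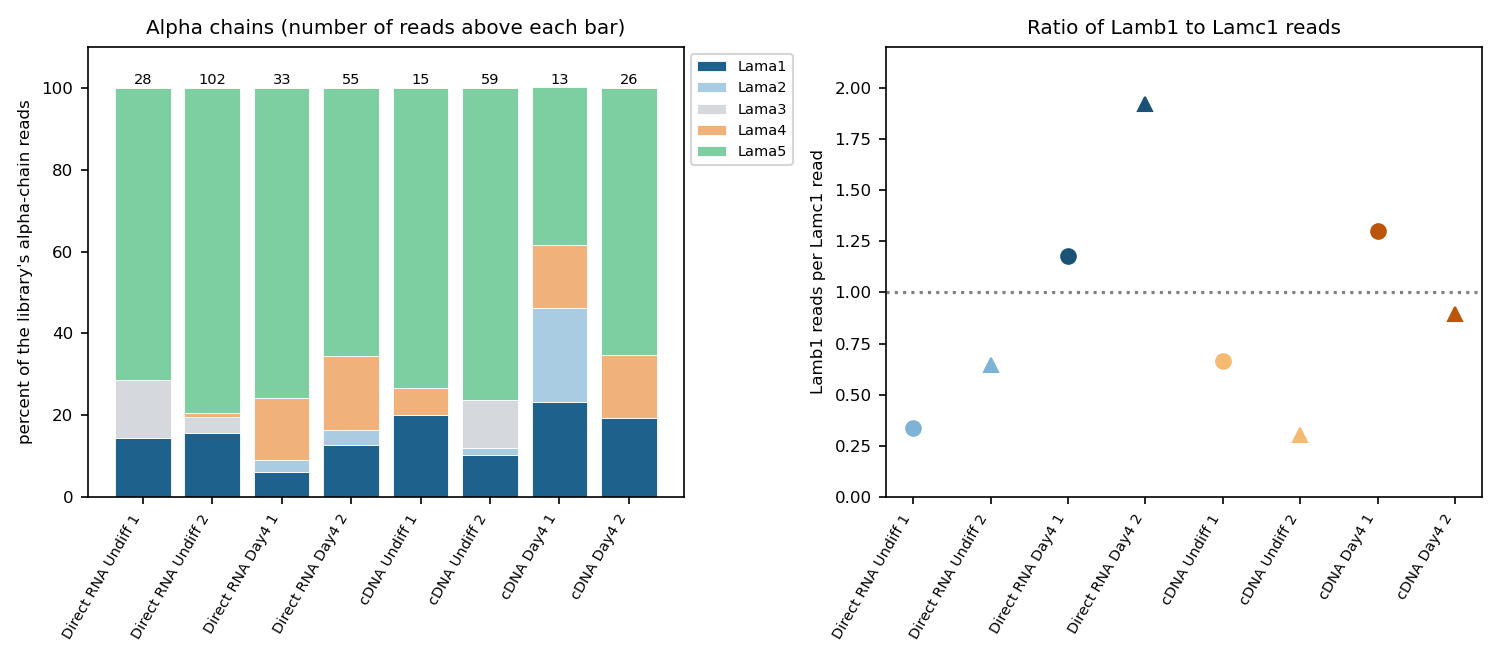
Left, the share of each alpha chain in the alpha-chain reads of each library (percent), with the number of reads above each bar. Right, the number of Lamb1 reads per Lamc1 read in each library, with a dotted line at 1. Lama5 takes the largest share in every library, and the ratio is above that of Undiff in each Day4 library, from 0.897 to 1.92.

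Among the alpha chains, which carry the receptor-binding end of a laminin, Lama5 led in every library. Lama5 (alpha5, chr2:180176373-180225859, minus strand, 11388 bases in 79 exons) is the main alpha chain of many epithelial and stem cell laminins. It was at 57.4 and 89.3 CPM in Direct RNA Undiff and at 88.2 and 48.8 CPM in Direct RNA Day4. In cDNA it was at 11.6 and 21.5 CPM in Undiff and at 3.79 and 8.18 CPM in Day4. The states overlapped in Direct RNA and did not overlap in cDNA. The log2 fold change was -0.27 (SE 0.57, adjusted p = 0.930) by Direct RNA and -1.67 (SE 0.81, adjusted p = 0.209) by cDNA, where edgeR gave -1.79 (adjusted p = 0.0294). Without replicate 2 of Undiff the Direct RNA value was 0.12, and without replicate 2 of Day4 it was 0.11. Lama5 was the 1 gene of 7 in cDNA with all Day4 libraries below Undiff, a pattern of 23.2% of all genes. The changes on the platforms differed by -1.54 (SE 0.94) and were not called apart (DESeq2 adjusted p = 0.9999).

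Lama4 (alpha4, chr10:38965515-39110188, plus strand, 6046 bases in 38 exons), a chain of vessel and mesenchymal basement membranes, was nearly unseen in Undiff. It had 0 and 1 reads in Direct RNA Undiff and 5 and 10 in Day4, which made 17.6 and 13.6 CPM in Day4. In cDNA it had 1 and 0 reads in Undiff and 2 and 4 in Day4. The ratio over summed reads was 18.5 with a counting interval of 2.84 to 777 in Direct RNA, and 5.37 (0.651 to 247) in cDNA. The Direct RNA log2 fold change was 2.92 (SE 1.31, adjusted p = 0.154), and with a mean normalized count of 3.89 the gene was below the minimum for a call. Of 6 endothelial markers, 3 rose in Direct RNA and 1 in cDNA, but 0 in Direct RNA without replicate 2 of Undiff or of Day4. Their summed level was between 70.5 and 121 CPM in Direct RNA Undiff and between 131 and 205 CPM in Day4, and the endothelial genes Cdh5, Emcn and Tie1 were at 0 in Direct RNA Undiff. Pecam1, an adhesion molecule of endothelial cells, had the opposite direction, at 88.2 ± 37.5 CPM in Direct RNA Undiff and 34.3 ± 18.6 CPM in Day4, and at 32.6 ± 1.34 and 23.5 ± 2.14 CPM in cDNA (SD, n = 2), and was called lower in Direct RNA by edgeR (adjusted p = 0.0404) but not by DESeq2 (adjusted p = 0.195). The summed mesenchymal markers went from between 6.61 and 11.5 CPM to between 1600 and 3150 CPM in Direct RNA, with Col1a2, Col3a1, Prrx1 and Lum at 0 in Undiff. Their part in the levels of Lama4 and the beta chains was not tested.

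Lama1 (alpha1, chr17:67697259-67822647, plus strand, 9526 bases in 63 exons), the alpha chain of the first embryonic laminin and of Reichert's membrane, was low throughout. Its level was 11.5 and 17.6 CPM in Direct RNA Undiff and 7.06 and 9.49 CPM in Day4. By the cDNA kit it was 3.16 and 2.87 CPM in Undiff and 2.28 and 2.41 CPM in Day4. These rest on 2 to 16 reads per library, and the ratio over summed reads, 0.554 (0.222 to 1.27) in Direct RNA and 0.795 (0.267 to 2.32) in cDNA, spans 1 on both platforms. Lama2 (alpha2, chr10:26980036-27619758, minus strand, 9614 bases in 65 exons), the muscle chain, had 0 and 0 reads in Direct RNA Undiff, 1 and 2 in Direct RNA Day4, 0 and 1 in cDNA Undiff and 3 and 0 in cDNA Day4. No state difference was detectable for Lama2 at this depth. Of the markers of smooth and cardiac muscle, 1 of 6, Acta2, rose on each platform, and none was called in Direct RNA without Undiff replicate 1 or either Day4 library or in cDNA without Day4 replicate 1. The smooth muscle gene Tagln had lower means in Day4, at 54.8 ± 41.0 CPM in Direct RNA Undiff and 26.5 ± 12.5 CPM in Day4, and at 13.4 ± 12.9 and 3.48 ± 1.52 CPM in cDNA (SD, n = 2). It was not called by DESeq2 (adjusted p = 0.409 and 0.193) but was called lower on both platforms by edgeR run on all genes with a read. Of the cardiac genes, Myl7 had higher means in Day4, at 14.1 ± 4.38 CPM in Direct RNA Undiff and 35.7 ± 4.43 CPM in Day4, and at 35.8 ± 19.5 and 62.8 ± 48.6 CPM in cDNA. In Direct RNA it was called higher by edgeR with its own filter (adjusted p = 0.0478) but not by DESeq2 (adjusted p = 0.514). Tnnt2 was at 0 and 8.41 CPM in the means of Undiff and Day4 in Direct RNA and at 1.53 and 4.58 CPM in cDNA. Myh6 was at 5.07 and 2.44 CPM in the means of Undiff and Day4 in Direct RNA and at 4.02 and 3.20 CPM in cDNA, and Myh11 was at 0 in both Direct RNA states. The median log2 fold change of the muscle markers with enough reads was 1.15 in Direct RNA and -0.017 in cDNA.

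The share of Lama5 in Undiff differed between the kits by less than the spread between replicates. Lama5 took 75.4% ± 5.66 of alpha-chain reads in Direct RNA Undiff and 74.8% ± 2.12 in cDNA Undiff (SD, n = 2), and 70.7% ± 7.28 and 52.0% ± 19.0 in Day4. Lama4 took 0.49% ± 0.69 and 3.33% ± 4.72 in Undiff and 16.7% ± 2.12 and 15.4% in Day4, where the share was the same in both cDNA replicates. The shares rest on 13 to 102 alpha-chain reads per library. The laminin chains Lama3, Lamb3 and Lamc3, outside the 10 genes, did not reach the mean count of a call. Lama3 had 4 and 4 reads in Direct RNA Undiff and none in either Day4 library, which is at least 2.17-fold lower over the group (floor of 3 reads for the group). In cDNA it had 0 and 7 reads in Undiff and none in Day4, at least 2.61-fold lower, but 1 of the Undiff libraries was itself at 0. Lamb3 and Lamc3 had at most 3 reads in any library.

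The nidogens and perlecan, which link the networks, had lower mean values in Direct RNA Day4 than in Undiff. Nid2 (nidogen-2, chr14:19751265-19811787, plus strand, 4876 bases in 21 exons) was at 247 and 255 CPM in Direct RNA Undiff and at 215 and 174 CPM in Direct RNA Day4, without overlap of the states. In cDNA it was at 1.05 and 18.7 CPM in Undiff and at 4.55 and 14.9 CPM in Day4, so the replicates differed far more than the states. The log2 fold change was -0.48 (SE 0.36, adjusted p = 0.543) by Direct RNA and -0.34 (SE 0.99, adjusted p = 0.938) by cDNA. The cDNA value was 1.93 without replicate 2 of Undiff, which held 39 of the 40 Undiff reads, and 0.18 without replicate 1 of Day4. Its direction in cDNA therefore rests on single libraries.

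Nid1 (nidogen-1, chr13:13437551-13512269, plus strand, 6091 bases in 20 exons) was at 48.8 and 95.9 CPM in Direct RNA Undiff and at 42.3 and 33.9 CPM in Day4. In cDNA it was at 6.32 and 13.4 CPM in Undiff and at 3.03 and 11.5 CPM in Day4, where the states overlapped. The Direct RNA log2 fold change was -1.04 (SE 0.63, adjusted p = 0.373) with DESeq2 and -1.09 (adjusted p = 0.0495) with edgeR. The ratio over summed reads was 0.438 (0.292 to 0.642) in Direct RNA and 0.737 (0.43 to 1.25) in cDNA. Replicate 2 of Direct RNA Undiff held 87 of the 104 Undiff reads, and without it the DESeq2 value of Nid1 was -0.41. In cDNA the value was -0.72, and it was -0.12 without replicate 1 of Day4 and -1.46 without replicate 2. Together with Lama1 and Nid2, Nid1 made 3 of 8 genes in Direct RNA whose Day4 libraries all lay below Undiff, a pattern of 30.3% of all genes. Hspg2 (perlecan, a heparan sulphate proteoglycan, chr4:137468769-137570630, plus strand, 14187 bases in 97 exons) was at 48.8 and 104 CPM in Direct RNA Undiff and at 52.9 and 46.1 CPM in Day4. The cDNA levels were 3.16 and 7.66 CPM in Undiff and 3.79 and 4.33 CPM in Day4. The states overlapped on both platforms, and the log2 fold change was -0.75 (SE 0.60, adjusted p = 0.589) by Direct RNA and -0.65 (SE 1.07, adjusted p = 0.904) by cDNA. Without replicate 2 of Undiff these values were -0.072 and -0.043, so the lower values of Hspg2 rest on that library on each platform.

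Levels were compared between genes per kilobase of the longest transcript. In Direct RNA Undiff the order of mean CPM per kb was led by Nid2 (51.4 ± 1.12, SD, n = 2), then Lamc1 (17.9 ± 4.48), Nid1 (11.9 ± 5.47), Lamb1 (11.0 ± 2.23), Lama5 (6.44 ± 1.98), Hspg2 (5.37 ± 2.73), Lamb2 (1.74 ± 0.30) and Lama1 (1.53 ± 0.46). Nid2 stood apart from its neighbour, while Nid1 and Lamb1, Lama5 and Hspg2, and Lamb2 and Lama1 were each closer to each other than their spread. In Direct RNA Day4 Lamb1 (25.4 ± 2.84) was above Lamc1 (13.4 ± 5.90), behind Nid2 (39.8 ± 6.05). In cDNA Undiff the highest means were Lamc1 (2.39 ± 0.44), Nid2 (2.02 ± 2.56) and Nid1 (1.62 ± 0.82), and in cDNA Day4 Lamb1 (3.16 ± 0.35), Lamc1 (2.23 ± 0.33) and Nid2 (2.00 ± 1.50). Nid2 did not lead by this kit, and its spread covered that of its neighbours. Each ONT read stems from 1 molecule, so division by length lowers the long members relative to plain CPM. By plain CPM the order was another: in Direct RNA Undiff Hspg2 had rank 3 in place of 6, Lama5 rank 4 in place of 5 and Lama1 a place above Lamb2, and in cDNA Undiff Lama5 had rank 2 in place of 4 and Nid2 rank 4 in place of 2.

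The type IV collagens, the network to which nidogens and perlecan tie laminin, and the enzymes that fold and cross-link collagen were examined beside the members. These lists were chosen with earlier results of the data known, so their counts are a description. Of 6 type IV collagen genes, 3 had enough reads, and all 3 rose in Direct RNA. On the log2 scale Col4a1 changed by 2.16 (SE 0.52, adjusted p = 7.3e-04), Col4a2 by 3.08 (SE 0.60, adjusted p = 1.2e-05) and Col4a5 by 5.98 (SE 1.16, adjusted p = 1.1e-05). In cDNA 1 rose, Col4a5, at 4.05 (SE 1.38, adjusted p = 0.0328). The cDNA values of Col4a1 and Col4a2 were 2.81 (adjusted p = 0.0597) and 2.37 (adjusted p = 0.146), and edgeR called all 3 in cDNA. In Direct RNA the call of Col4a1 was lost without Undiff replicate 2 or either Day4 library, and that of Col4a2 without Undiff replicate 2. Col4a5 had 0 reads in all 4 Undiff libraries, so its fitted values depend on the shrinkage, and its summed reads were at least 27.9-fold higher in Day4 in Direct RNA and at least 9.24-fold in cDNA (floor of 3 reads for the group). With a replicate block its Direct RNA call was lost, at 1.64 with shrinkage (DESeq2 adjusted p = 0.838) and 7.72 without it (adjusted p = 0.382), against 7.78 without shrinkage or block. In Direct RNA 1 of the collagens was called without Undiff replicate 2, and in cDNA 0 were called when any 1 library was left out. The list's median was 3.08 in Direct RNA and 2.81 in cDNA, also with Col4a5 set to its lower bound.

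Of 18 other basement membrane proteins, 10 had enough reads in Direct RNA and 11 in cDNA, with 3 and 4 higher and none lower. Sparc, a collagen-binding protein, and Pxdn, the peroxidase that cross-links collagen IV, rose on both platforms. Sparc changed by 1.23 (SE 0.33) and 2.02 (SE 0.39) and Pxdn by 3.16 (SE 0.56) and 3.23 (SE 0.85) on the log2 scale. The Direct RNA call of Sparc was lost without Undiff replicate 2 or Day4 replicate 1, and the cDNA call of Pxdn without Undiff replicate 2 or either Day4 library. Fbln1 rose in Direct RNA, and Fbln2 and Fras1 in cDNA, 3 genes named after their values were seen. Without Undiff replicate 2 or Day4 replicate 1, 1 gene of this list was called in Direct RNA, and without cDNA Undiff replicate 2 or either cDNA Day4 library, 2 were called in cDNA. After thinning to the smallest library, 0 of the 18 proteins were called in cDNA in either draw, so the cDNA calls of Sparc and Pxdn were lost. Of 10 folding and cross-linking enzymes, 5 rose in Direct RNA and 3 in cDNA (Serpinh1, P4ha1 and P4ha2 on both, Loxl1 and Loxl2 in Direct RNA, with the last 3 named after their values were seen). Without Direct RNA Day4 replicate 1, 3 rose in Direct RNA. After thinning, 1 of the enzymes was called in cDNA in each draw. The collagen chaperone Serpinh1 changed by 4.94 (SE 0.32) and 5.01 (SE 0.41), and the prolyl hydroxylase subunit P4ha1 by 3.69 (SE 0.44) and 3.53 (SE 0.50). Of 9 laminin receptors, 5 had enough reads. Itgb1, the shared integrin beta1 subunit, rose in Direct RNA at 1.29 (SE 0.39, adjusted p = 0.0114). Itga6, the laminin-binding alpha6 subunit, fell by 2.55 on the log2 scale in cDNA (SE 0.73, adjusted p = 0.00743). In the other kit they had values of 0.70 and -1.74 and were not called by DESeq2, whereas edgeR called Itga6 lower in Direct RNA as well, at -1.73 (adjusted p = 0.00441), as did DESeq2 with at least 10 reads in sum (adjusted p = 0.0425). Both genes were named after their values were seen. No receptor was called in Direct RNA without either Undiff library or without Day4 replicate 1, or in cDNA without any 1 of the libraries. The summed primitive and parietal endoderm markers moved from between 8.61 and 24.2 CPM to between 953 and 1210 CPM in Direct RNA. Of 8 visceral endoderm markers, 3 rose in Direct RNA (Afp, Ttr and Apoa1, of which Afp and Apoa1 are named after their values were seen) and 1 in cDNA (Ttr), and their sum moved from between 14.3 and 18.7 CPM to between 148 and 208 CPM in Direct RNA. Without Undiff replicate 2, 1 of them was called in Direct RNA, and without either Undiff library 2 were called in cDNA. The visceral endoderm gene Amn had the opposite direction, without overlap of the states on either platform. Amn was between 5.74 and 14.3 CPM in Direct RNA Undiff and between 0 and 1.36 CPM in Day4. In cDNA it was between 4.22 and 8.62 CPM in Undiff and between 0 and 1.93 CPM in Day4. It was not called lower on either platform and was named after its values were seen. Hnf4a of the same list had at most 1 read in any library. Of 7 neural markers, Ncam1 rose and Tubb3 fell on both platforms. The call of Ncam1 was lost in Direct RNA without either Undiff library or without Day4 replicate 1, and that of Tubb3 in cDNA without replicate 2 of either state. The neural sums were between 161 and 178 CPM in Direct RNA Undiff and between 113 and 152 CPM in Day4, but between 88.5 and 192 CPM and between 621 and 639 CPM in cDNA. The part of these cell types in the changes of the matrix genes was not tested.

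**Figure D3:**
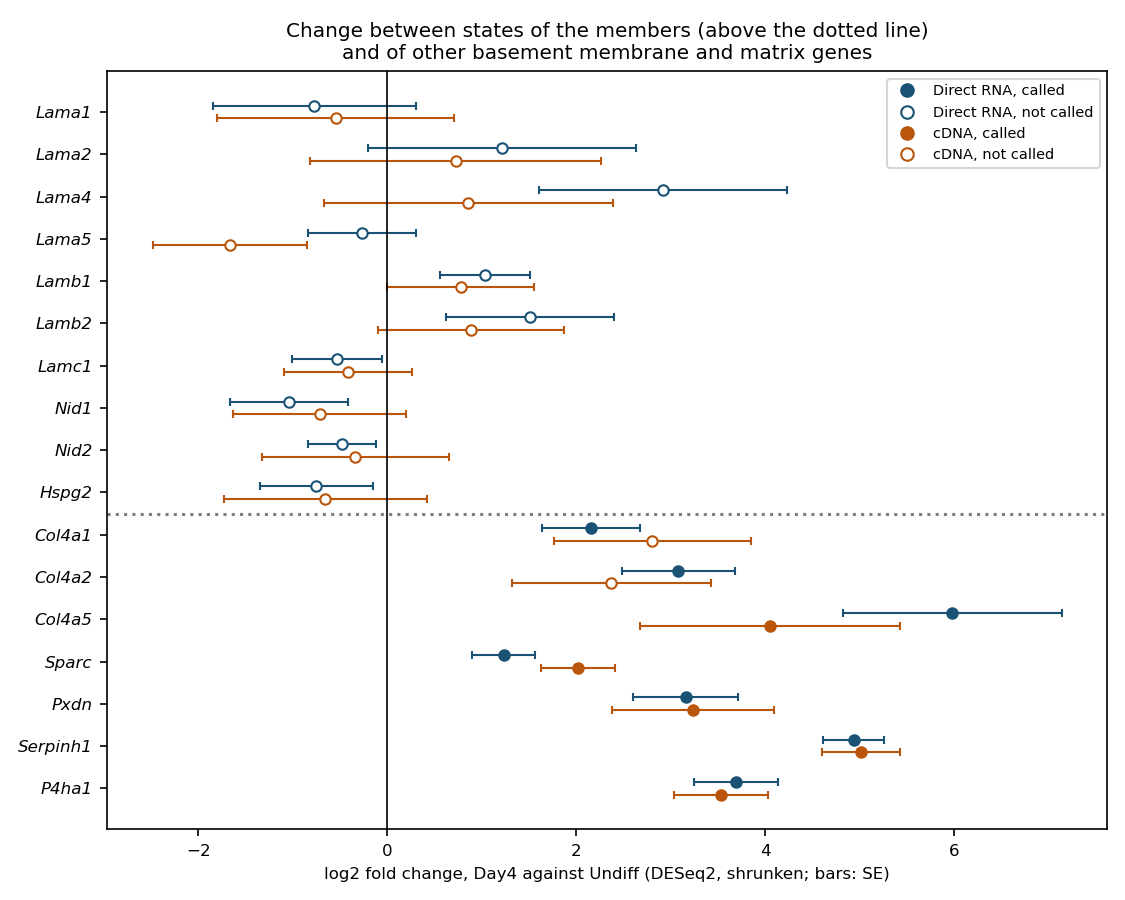
Log2 fold change of Day4 against Undiff with its SE, on Direct RNA (blue) and cDNA (orange), for the 10 genes above the dotted line and for 7 collagen, matrix and folding genes below it. Filled points are DEGs. None of the 10 genes is filled, with Lamb1 at 1.04 and 0.78, while Serpinh1 lies at 4.94 and 5.01.

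The test of platform by state asked whether the change between states differed between the kits. None of the 10 genes was called (adjusted p = 0.9999 for every one), with 0 at an unadjusted p under 0.05 in DESeq2 and 0 in edgeR. Over all genes 0.0116% were called, so this test made few calls at all. A difference between the kits in the change of these low genes was not detectable at this depth.

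The kits themselves differed for most members. In the fit over all 8 libraries with state as covariate, 6 of the 8 members with enough reads were lower in cDNA. The share was 26.6% of all genes with this mean count. It was 37.0% of the 2398 such genes whose longest transcript was at least as long as that of Nid2, the shortest of the 10. With edgeR all 7 members tested were lower, Lamb2 being added at -1.14 (adjusted p = 0.0158), against 30.1% of all genes tested. At an unadjusted p under 0.05, 9 of the 10 passed. The share of all genes at this p was not computed. After adjustment, 5344 of the 10426 genes with the minimum mean count were called in either direction. Nid2 had the largest difference, with a log2 fold change of cDNA against Direct RNA of -3.59 (SE 0.43, adjusted p = 1.2e-15). Its mean was 222 ± 36.8 CPM (SD, n = 4) in Direct RNA and 9.80 ± 8.35 CPM in cDNA. Hspg2 differed by -2.85 (SE 0.44, adjusted p = 8.7e-10), and Lamb1 by -2.26 (SE 0.32, adjusted p = 4.4e-11). Lamc1 differed by -1.93 (SE 0.30, adjusted p = 1.8e-09), Lama5 by -1.93 (SE 0.43, adjusted p = 3.5e-05) and Nid1 by -1.82 (SE 0.44, adjusted p = 1.7e-04).

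Not called were Lama1 at -1.29 (SE 0.62, adjusted p = 0.0943), Lamb2 at -0.99 (SE 0.50, adjusted p = 0.110), Lama4 at -1.70 (SE 0.86, adjusted p = 0.120) and Lama2 at -0.07 (SE 1.18). The 95% interval of the unshrunken Lamb2 difference ran from -2.05 to -0.021. Of the 8 genes with enough reads, 7 had all 4 cDNA libraries below all 4 Direct RNA libraries, Lamb2 being the exception, against 30.1% of all genes. The 4 libraries of a kit came from the same kit, input amount and counting setting, so these factors and the platform cannot be told apart. The 6 calls stood when any 1 library was left out, and the value of Nid2 then lay between -4.11 and -3.23. After thinning to the smallest library, which moved the median of all genes to -0.47, the same 6 genes were called.

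The platform difference of all genes went with transcript length. Genes under 1 kb had a median log2 fold change of cDNA against Direct RNA of 1.63, genes of 2 to 3 kb of 0.17, and genes of 5 to 7 kb of -0.76. It did not go further down in longer genes, with -0.54 at 7 to 10 kb and -0.28 over 10 kb. The share of genes called lower in cDNA was 5.76% under 1 kb, 38.3% at 5 to 7 kb and 29.4% over 10 kb. All 10 genes have transcripts over 4 kb. A gene called lower lies below the median of its length class by the rule of the call, so the place of the 6 called genes under these medians is no result. The uncalled members Lama1 at -1.29 and Lamb2 at -0.99 lay below the medians of their classes, -0.54 and -0.76. Lama4 at -1.70 lay below the median of its length class, -0.76, and Lama2 at -0.07 above that of its own, -0.54. With mean counts of 3.19 and 0.88, Lama4 and Lama2 were themselves too low to be among the genes behind these medians.

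**Figure D4:**
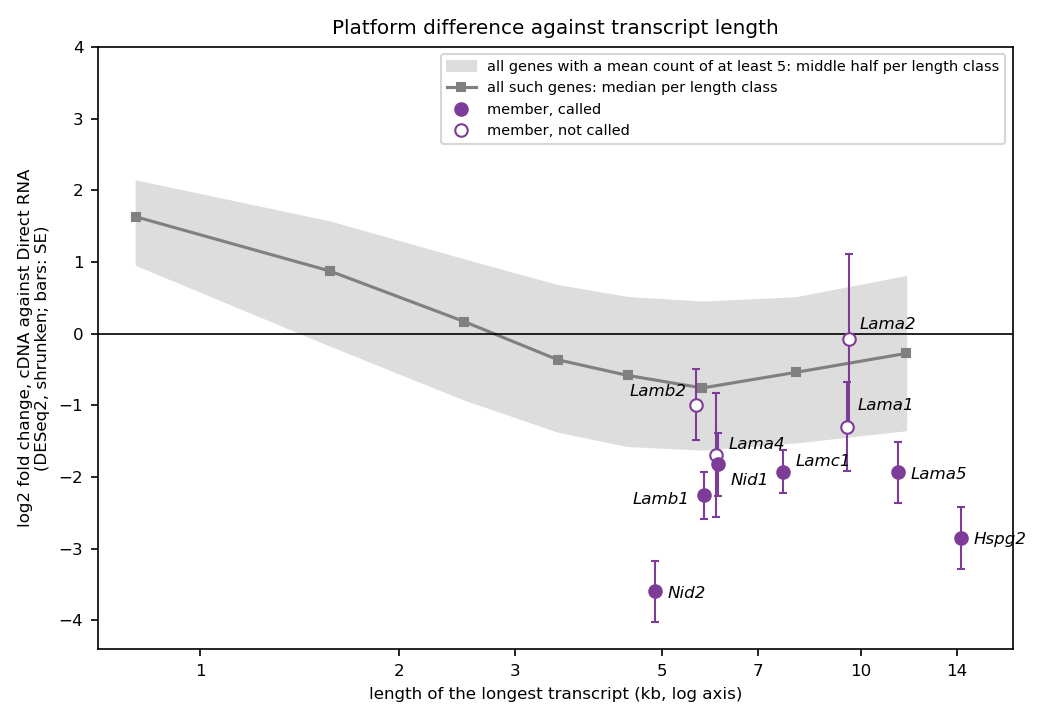
Log2 fold change of cDNA against Direct RNA with its SE against the length of the longest transcript (kb, log axis). The grey line and band show the median and the range from the lower to the upper quartile of all genes per length class, and filled points are genes called lower in cDNA. Nid2 lies at -3.59 and Hspg2 at -2.85, where their classes have medians of -0.58 and -0.28. Lama2, with a mean count of 0.88, lies at -0.07.

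Nid2 is the one member whose exons overlap another counted gene. Its last exon shares 437 bases (chr14:19811351-19811787) with Rtraf on the opposite strand, listed under the older symbol 2700060E02Rik. That gene had 74 to 193 reads in the Direct RNA libraries and 312 to 890 in the cDNA libraries. The counting was strand-specific for Direct RNA. The study names only Direct RNA as strand-specific in its gene counts, and its exon counts ignored strand except for Direct RNA. The gene-level setting for cDNA was not stated outright. The part of this overlap in the platform difference of Nid2 was not tested. Among genes at least as long as Nid2, those with an opposite-strand exon overlap were called lower in cDNA in 43.3% of 439 cases, against 35.6% of 1959 without one.

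The 5 genes whose profile over the 8 libraries was most like the mean profile of Lama1, Lamb1 and Lamc1, the chains of the first embryonic laminin, were Sf3b3, Rab5c, Srp68, Klhdc3 and Adipor1. The measure was the root mean square difference of centred log2(CPM + 5) values, which was 0.139 for Sf3b3 and 0.177 for Adipor1, among 3792 genes that averaged 50 or more reads a library. The mean profile was between 0.89 and 1.17 in the Direct RNA libraries and between -1.14 and -0.89 in the cDNA libraries, so that this likeness is mainly one of platform, and the points share their libraries and depth.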

How the data were processed

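Per gene symbol, the authors deposited raw read counts, made with htseq-count on reads that minimap2 had aligned to mm10, with the UCSC annotation, by strand for Direct RNA. No normalization had been applied, and the 5 counters of reads on no gene were left out. Samples were grouped by their titles. CPM was computed from reads on genes (283461 to 2088592 per library), with Wilson intervals at 95% that cover counting error only. The DESeq2 tests followed the settings of the study in a later version (1.42.0 in R 4.3.3), per platform, with shrunken log2 fold changes. They called 1660 genes in Direct RNA and 1842 in cDNA, fewer than the study reported, and the cause was not tested. As an alternative that the study did not use, edgeR 4.0.16 was added. Platform was tested over all 8 libraries with state as covariate, and platform by state without shrinkage on the adjusted p-value alone. P-values were adjusted (Benjamini-Hochberg) over all genes fitted. The fits were tested on simulated data. Gene models are from GENCODE vM21 (GRCm38), with 24046 of 24421 symbols matched, and promoters from RefSeq.

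The members and lists were chosen with earlier results of these data known. Named were the 10 genes, other laminin chains, Col4a1, Col4a2, up to 2 genes per list with the highest and lowest changes among those called on both platforms, and the 5 nearest profiles. Alternatives were edgeR, other size factors, count filters, no shrinkage, a replicate block, thinning to the smallest library and leaving out each library.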

Additional observations from a re-analysis of the deposited data

How the results depend on the processing

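Over the members, 335 log2 fold changes were recomputed under alternatives, of which 316 kept their direction and their side of the thresholds, 9 gained a call, 10 changed sign and 0 lost a call. With edgeR the number of members called between states was 3 in Direct RNA and 1 in cDNA, with its own filter and with all genes that had a read, and the cause was not tested. The sign of a few uncalled values changed. Thinning of all libraries to the smallest was drawn at random 2 times, the second draw being added after seeing the data. The first draw gave 0.019 for Lama5 in Direct RNA and -0.62 for Lamb1 and 0.13 for Nid2 in cDNA, and the second gave 0.97 for Nid1 and 0.28 for Nid2 in cDNA, so the genes that turned differed between draws. Nid2 in cDNA was at 0.27 with a replicate block without shrinkage. With single libraries left out, Nid2 in cDNA ranged from -1.16 to 1.93 and Lama5 in Direct RNA from -0.61 to 0.12. Thinning shifted the median platform difference of all genes to -0.47, and the members called lower in cDNA were still 6. Of their values, Lamc1 moved to -3.57 in the first draw, and Lamb1 to -3.46 and Nid2 to -5.55 in the second.

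The methods of the study say that the RNA of the duplicates was used with both kits, but the labels do not say that a number marks the same culture across kits, and between states a number is no more than a name. Differences between replicates correlated across 1395 genes at 0.216 between the states in Direct RNA, 0.50 in cDNA, 0.127 between the kits in Undiff and -0.419 in Day4. The replicate block left 0 members called between states on both platforms and 6 between the kits, and moved the calls over all genes in Direct RNA from 1660 to 843 and in cDNA from 1842 to 1375. With the cDNA Day4 numbers crossed, an alternative chosen after seeing the data, 6 members and 5081 of all genes were called between the kits. Under the block the type IV collagens called went from 3 to 2 in Direct RNA, with Col4a5 lost, and from 1 to 0 in cDNA, and without single libraries from 3 to between 1 and 3 in Direct RNA and to 0 in cDNA. Over all alternatives the calls ranged over 1 to 6 and 0 to 6 in Direct RNA and cDNA for the other basement membrane proteins, over 3 to 6 and 1 to 6 for the folding enzymes, over 0 to 2 and 0 to 1 for the receptors, over 2 to 6 and 1 to 6 for the primitive and parietal endoderm markers and over 0 to 4 and 0 to 2 for the endothelial markers. They ranged over 3 to 5 and 1 to 5 for the mesenchymal markers, where the block gave 3 and 1 and thinning gave 1 in cDNA, over 6 to 9 and 3 to 9 for the pluripotency markers, with 4 in cDNA in the first thinning draw, over 0 to 2 on both platforms for the muscle markers, over 1 to 3 and 0 to 4 for the visceral endoderm markers and over 1 to 3 on both for the neural markers. Calls over all genes were between 393 and 3257 in Direct RNA, 216 and 3348 in cDNA and 2510 and 5473 between the kits. The replicate block with shrinkage gave 3 primitive and parietal endoderm markers called in Direct RNA and 2 in cDNA. In cDNA it left 0 receptors and 0 endothelial markers called. Depth limits the state comparison, since 3 reads are up to 10.6 CPM in a library, and Lama2 had at most 3 reads in any library.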
